A study of Mus musculus with 4 samples.

Results

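The 10 genes described here encode secreted factors and receptors through which bone cells control osteoclasts, the cells that resorb bone. They are *Tnfsf11* (RANKL), *Tnfrsf11b* (osteoprotegerin, OPG), *Tnfrsf11a* (RANK), *Csf1* (M-CSF), *Il34*, *Il6*, *Il11*, *Lif*, *Pth1r* and *Spp1* (osteopontin). They were chosen by name for this known role, with earlier results of these data known, and are 10 of the 55450 genes in the count table. RNA-seq was performed on MLO-Y4 cells, a mouse cell line with osteocyte-like features, in 2 unloaded and 2 loaded samples. Loaded cells grew on collagen I-coated UniFlex plates with a silicone rubber base and were stretched equiaxially for 12 h at 0.5 Hz and 20% strain. Unloaded cells stood in the incubator of the loading system for the same 12 h, but on Corning 6-well culture plates. Both began at 60% confluency. The effect of the stretch and that of the plate cannot be told apart in this design. No source used here states whether the replicates were separate cultures, so p-values measure the spread between these samples, which may be technical.

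Osteoclasts form from blood precursors that need M-CSF or IL-34, both of which bind the receptor CSF1R, and RANKL, which binds RANK. OPG is a soluble decoy receptor that captures RANKL, so the ratio of RANKL to OPG in bone is widely used as a measure of osteoclast support. In bone, osteocytes are a major source of RANKL, and parathyroid hormone, acting through PTH1R, and the IL-6 family cytokines raise its transcription in osteoblast lineage cells. Osteopontin is a matrix protein to which osteoclasts attach through integrins.

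The total was 28941994 to 32185693 counts per library. Low counts piled up at 4, the value of 1223 to 1259 genes per library, against 560 to 623 genes at 3 and 764 to 770 genes at 5. A read pair was therefore taken to be worth about 4 counts, which is an assumption, since the read length is not given in the sources used here. In genes with 1 exon and 1 transcript, 525 to 547 genes stood at 4 against 304 to 326 at 3, but multiples of 4 made up only 25.7% to 28.2% of their values from 1 to 40. If a read pair were worth 1 count, the limits below would be lower, and *Tnfrsf11a*, *Il11* and *Pth1r* would pass a limit of 3 counts in some libraries. The limit of detection was accordingly set at 12 counts, or 3 read pairs, which is 0.372 to 0.413 CPM (counts scaled to library size, with TMM factors) and, like the intervals below, covers counting error only. Of the osteocyte markers, *Pdpn*, *Phex*, *Gja1*, *Cd44* and *Irx5* were above this limit in every library. *Sost*, *Mepe*, *Fgf23*, *Fbln7* and *Ptprz1* were at or under it in every library, and *Dmp1* had 12 to 14 counts. The label of an osteocyte-like line thus holds for part of the marker list.

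The genes *Spp1*, *Il6* and *Tnfsf11* are shown by the sequence upstream of their start, because they stand at different ends of the results below. *Spp1* had the highest level per length, *Il6* had the only positive fold change among the tested members, and *Tnfsf11* had no count. The windows cover the 250 bases before a start listed in RefSeq (build GRCm38.p6). They lie at chr5:104434861-104435110 (plus strand) for *Spp1*, chr5:30012864-30013113 (plus strand) for *Il6* and chr14:78308044-78308293 (minus strand) for *Tnfsf11*. Capitals mark matches to 6 motifs, which were searched on both strands and of which no matches overlapped in these windows. For AP-1 the letters were TGANTCA, and for the antioxidant response element TGACNNNGC. The cAMP response element (CRE) was searched as TGACGTCA and the NF-kB motif as GGANTTTCC. The RUNX motif was AACCACA, while the TATA box was TATAAA.

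Spp1: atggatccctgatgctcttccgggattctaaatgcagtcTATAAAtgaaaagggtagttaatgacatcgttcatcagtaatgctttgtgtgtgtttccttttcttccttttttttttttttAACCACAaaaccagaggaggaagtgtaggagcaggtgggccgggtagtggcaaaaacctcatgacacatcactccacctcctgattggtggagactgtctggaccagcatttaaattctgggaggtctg

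Il6: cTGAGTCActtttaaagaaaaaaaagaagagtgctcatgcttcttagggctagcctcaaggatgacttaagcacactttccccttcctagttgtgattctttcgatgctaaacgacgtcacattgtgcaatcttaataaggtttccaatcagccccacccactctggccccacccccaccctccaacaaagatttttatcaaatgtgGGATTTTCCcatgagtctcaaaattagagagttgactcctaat

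Tnfsf11: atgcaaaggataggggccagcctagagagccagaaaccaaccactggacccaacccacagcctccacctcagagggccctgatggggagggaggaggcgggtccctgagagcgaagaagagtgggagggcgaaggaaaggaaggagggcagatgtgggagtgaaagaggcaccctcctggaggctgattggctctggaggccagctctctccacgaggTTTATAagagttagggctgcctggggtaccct

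The *Spp1* window shown held a TATA box motif 211 to 206 bases and a RUNX motif 129 to 123 bases upstream of its start. A second *Spp1* window, at chr5:104435942-104436191 (plus strand), held 0 of the motifs and is not shown. In *Il6*, an AP-1 motif lay 249 to 243 bases and an NF-kB motif 43 to 35 bases upstream. The *Tnfsf11* window held a TATA box motif on the opposite strand, 32 to 27 bases upstream. Among all 32851 windows of this length, 12.4% held the TATA box motif, 6.75% the AP-1 motif, 4.40% the RUNX motif and 1.07% the NF-kB motif. RefSeq windows were found for 8 of the 10 members, 12 windows in all, and not for *Tnfrsf11b* or *Il34*. Of these windows, 3 held the AP-1 motif, 1 the antioxidant response element, found in 10.2% of all windows, 2 the NF-kB motif, 1 the RUNX motif, 2 the TATA box motif and 0 the CRE, found in 1.55%. These matches are descriptions of the letters and not evidence of binding.

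The members differed in level over several orders of magnitude. Levels between genes were compared in RPKM, the CPM divided by the annotated exonic length in kilobases. *Spp1* lay at 165 to 248 RPKM and *Csf1* at 99.9 to 123 RPKM over the 4 libraries, and their ranges did not overlap. The next were *Lif*, which encodes leukemia inhibitory factor, at 5.38 to 7.61 RPKM, and *Il34* at 2.98 to 5.54 RPKM. These 2 ranges overlapped, although *Lif* was above *Il34* within each library. *Tnfrsf11b* lay at 0.847 to 1.2998 RPKM and *Il6* at 0.326 to 0.945 RPKM, again with overlapping ranges. The other 4 members, *Tnfsf11*, *Tnfrsf11a*, *Il11* and *Pth1r*, were at or under the limit of 12 counts in every library and did not enter the test.

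**Figure D1:**
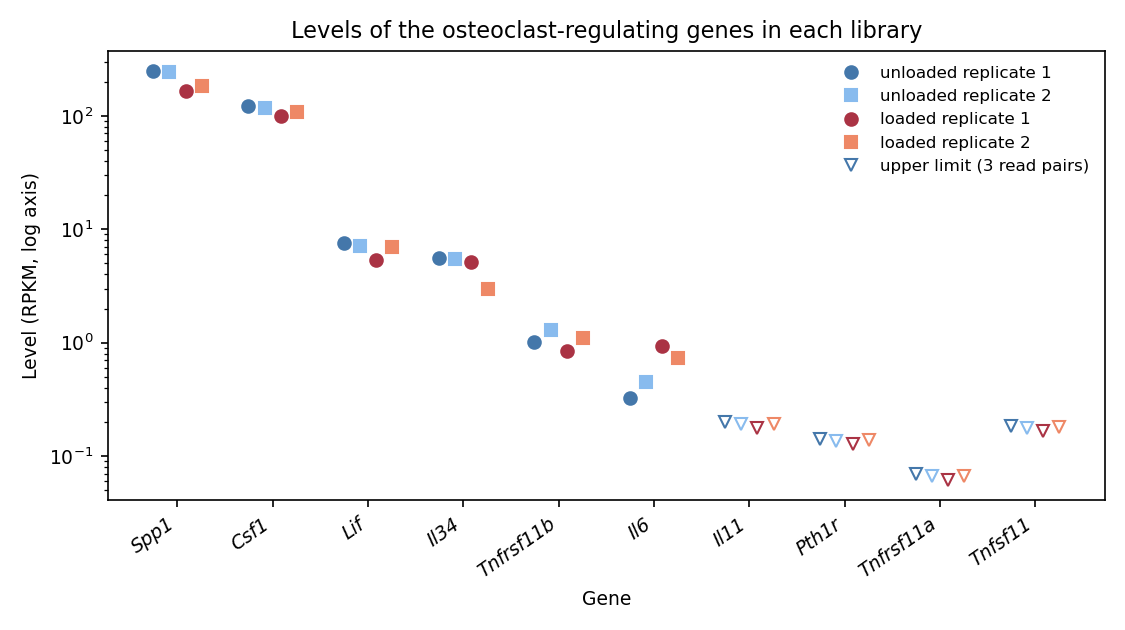
Level of each of the 10 genes in each library, in RPKM on a log axis, ordered by the mean over 4 libraries. Filled symbols are libraries above 12 counts, and open triangles mark the upper limit of 3 read pairs for libraries at or under it. *Spp1* and *Csf1* stand far above the rest, and *Tnfsf11*, *Tnfrsf11a*, *Il11* and *Pth1r* are shown by their limits alone.

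*Tnfsf11* (ENSMUSG00000022015.8, chromosome 14, 78277445 to 78308043), which encodes RANKL, had 0 counts in all 4 libraries. At this depth a count of 0 allows up to 0.185 RPKM in unloaded replicate 1, the highest limit, and up to 0.166 RPKM in loaded replicate 1, the lowest. *Tnfsf11* mRNA was thus not detectable with or without loading, and no fold change can be given. *Tnfrsf11b* (ENSMUSG00000063727.3, chromosome 15, 54250619 to 54278484), the gene of the decoy receptor OPG, had 83 and 111 counts in the unloaded and 77 and 92 counts in the loaded libraries. These correspond to 2.86 and 3.66 CPM without loading and 2.39 and 3.09 CPM with loading. The groups overlapped, since unloaded replicate 1 lay below loaded replicate 2. Its log2 fold change was -0.25 (SE 0.292, edgeR adjusted p = 0.755), a difference within the spread between replicates.

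The balance could therefore only be bounded from above. The limits and ratios below compare counts, without correction for exonic length. This length is 2236 bases for *Tnfsf11* and 2818 bases for *Tnfrsf11b*, so per length the limits would be higher. Lengths shift every library alike, so the difference between groups is the same per exonic length by construction. A *Tnfsf11* signal at the limit of 12 counts would be 14.5% and 10.8% of the *Tnfrsf11b* count in unloaded replicates 1 and 2. In loaded replicates 1 and 2 it would be 15.6% and 13.0%. Counted in read pairs of 4 counts, *Tnfsf11* made up 0 of 21 and 0 of 28 pairs of both genes without loading, which allows a share of up to 16.1% and 12.3% (exact binomial 95% interval). With loading it made up 0 of 19 and 0 of 23 pairs, which allows up to 17.6% and 14.8%. With 0.5 counts added to both genes, the mean log2 ratio was -7.59 in unloaded and -7.40 in loaded samples. The difference of 0.19 comes from *Tnfrsf11b* alone and had a two-sided exact permutation p = 0.667, where the smallest p that 2 against 2 samples allow is 0.333. Its sign rested on unloaded replicate 2, without which the difference was -0.02.

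*Tnfrsf11a* (ENSMUSG00000026321.7, chromosome 1, 105780718 to 105847981), which encodes the receptor RANK, had 5 and 0 counts in the unloaded and 5 and 5 counts in the loaded libraries. This is about 1 read pair in each library that had counts and gives no fold change. *Lgr4*, a further receptor of RANKL, was present at 3.30 to 3.87 RPKM, with a log2 fold change of 0.15 (SE 0.115, edgeR adjusted p = 0.61).

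*Csf1* (ENSMUSG00000014599.10, chromosome 3, 107741048 to 107760469) encodes M-CSF, the growth factor of the macrophage and osteoclast lineage. Its CPM was 648 and 616 in the unloaded and 527 and 574 in the loaded libraries. Both loaded libraries lay below both unloaded libraries. The means were 632 ± 23.0 and 550.5 ± 32.7 CPM (SD, n = 2 per group). This gave a log2 fold change of -0.20 (SE 0.0656, edgeR adjusted p = 0.255). The difference was larger than the SDs but did not pass the test across all genes.

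*Il34* (ENSMUSG00000031750.15, chromosome 8, 110741829 to 110805924) encodes the second CSF1R ligand. Its CPM was 10.8 and 10.7 in the unloaded and 10.1 and 5.84 in the loaded libraries. The low value came from loaded replicate 2 alone, while loaded replicate 1 lay close to the unloaded samples. The log2 fold change was -0.43 (SE 0.274, edgeR adjusted p = 0.539), and it was -0.09 without loaded replicate 2 and -0.88 without loaded replicate 1. *Il34* shares 22 and 75 exonic bases with the opposite-strand genes *Gm15894* and *Gm15895*, which had 5 to 28 and 0 to 8 counts. Per length, the level of *Csf1* was 19.3 to 36.4 times that of *Il34*.

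*Csf1r*, the receptor of both ligands and a gene usually restricted to the macrophage lineage, was among the most abundant transcripts of these cells. It lay at 269.8 to 274 RPKM, 2.22 to 2.70 times the level of *Csf1* per length, and ranked 19 among all genes by mean CPM. The level was 1579 ± 7.64 CPM in unloaded and 1560.2 ± 3.08 CPM in loaded samples (SD, n = 2 per group). Its log2 fold change was -0.02 (SE 0.0456, edgeR adjusted p = 0.91). In a bulk sample, fewer cells of a type and less RNA per cell cannot be told apart, and several defining genes of blood cells were at or near 0. *Ptprc*, which encodes CD45, had 0, 0, 3 and 0 counts, *Adgre1* had 0, 0, 4 and 0, and *Tyrobp* had 0 in every library. Of the 11 blood cell markers, 7 were at or under the limit in every library. The other 4 were tested and had negative log2 fold changes, with a median of -0.49. Unadjusted, 1 had a p under 0.05, against 14.3% of all tested genes. Beside *Csf1r* the tested markers were the macrophage marker *Cd68* at -0.80 (162 and 141 counts without and 99 and 84 with loading, edgeR adjusted p = 0.216), *Lyz2* at -0.34 (adjusted p = 0.775) and *Cd79a* at -0.64 (adjusted p = 0.734). Without *Csf1r*, the other 10 summed to 6.10 to 7.75 CPM in unloaded and 4.33 to 4.77 CPM in loaded samples, and their part in the values of *Csf1* or *Spp1* was not tested. *Csf1r* shares 873 exonic bases with *Hmgxb3* on the opposite strand, which had 1481 to 1968 counts against 45688 to 50270 for *Csf1r*. *Sdc1*, a binding partner of IL-34, lay at 12.3 to 14.8 RPKM, with a log2 fold change of 0.19 (SE 0.0975, edgeR adjusted p = 0.454). *Trem2*, a receptor of the osteoclast lineage, had counts in 1 library per group, 16 and 21.

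**Figure D2:**
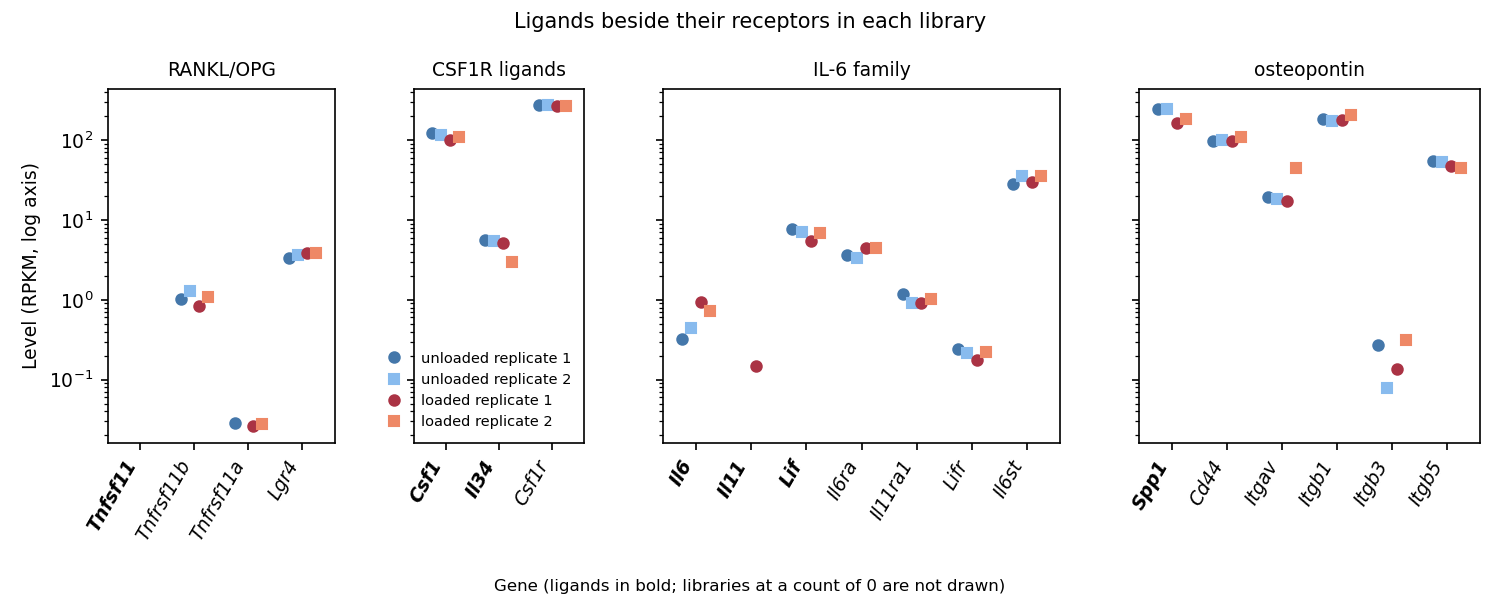
Ligands (bold) beside their receptors in each library, in RPKM on a log axis, with 1 symbol per library. *Csf1* and its receptor *Csf1r* were both high in all 4 libraries, whereas *Tnfsf11* has no symbol because it had 0 counts, and *Lifr* and *Itgb3* were low.

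*Il6* (ENSMUSG00000025746.11, chromosome 5, 30013114 to 30019981) encodes interleukin-6. It had 23 and 33 counts in the unloaded and 74 and 53 counts in the loaded libraries. This corresponds to 0.792 and 1.09 CPM without and 2.29 and 1.78 CPM with loading, and the groups did not overlap. The log2 fold change was 1.11 (SE 0.393), a 2.16-fold higher level with loading, and the edgeR adjusted p = 0.288 did not pass the test. Leaving out 1 library gave 0.91 to 1.36. The counts correspond to between 5.75 and 18.5 read pairs per library. *Il11* (ENSMUSG00000004371.15, chromosome 7, 4772373 to 4782859) had 10 counts in loaded replicate 1 and 0 in the other libraries, which is under the limit.

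*Lif* (ENSMUSG00000034394.14, chromosome 11, 4257557 to 4272514) lay at 33.1 and 31.1 CPM in the unloaded and 23.4 and 30.1 CPM in the loaded libraries. Both loaded values were below both unloaded values, but loaded replicate 2 was close to them. Its log2 fold change was -0.26 (SE 0.143, edgeR adjusted p = 0.467), and it was -0.09 without loaded replicate 1.

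The shared signalling chain *Il6st* (gp130) was present at 28.01 to 35.7 RPKM and *Il6ra* at 3.34 to 4.47 RPKM, whereas *Lifr* lay at 0.178 to 0.243 RPKM and *Il11ra1* at 0.922 to 1.19 RPKM. Of the 14 genes of IL-6 family receptors and signalling, 13 were tested and 0 passed an adjusted p of 0.01 with edgeR. Unadjusted, 3 had a p under 0.05, against 14.3% of all tested genes. At 0.05, 2 were lower in loaded cells, among them *Jak2*, a kinase that acts downstream of gp130, with a log2 fold change of -0.46 (SE 0.0658, edgeR adjusted p = 0.0445). DESeq2 called 2 genes of this list lower at 0.01, against 2.91% of its genes with an adjusted p, called in either direction. *Il6ra* had a log2 fold change of 0.36 (SE 0.0978, edgeR adjusted p = 0.187). The median of the list was 0.02. Of 6 other ligands of the family, 3 were tested and 0 were called by edgeR or DESeq2, with 1 at an unadjusted p under 0.05. The log2 fold change was -0.63 for *Clcf1* (edgeR adjusted p = 0.199) and 0.01 for *Cntf* (edgeR adjusted p = 0.991).

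*Pth1r* (ENSMUSG00000032492.14, chromosome 9, 110722085 to 110747145), the receptor of parathyroid hormone, had 4 and 4 counts in the unloaded and 2 and 0 counts in the loaded libraries. The receptor mRNA was under the limit in every library, and no fold change is given. It shares 95 exonic bases with *Myl3* on the opposite strand, which had 0 counts. Of 30 genes of PTH receptor signalling, 28 were tested, and 0 passed an edgeR adjusted p of 0.01 or 0.05. Unadjusted, 3 had a p under 0.05, against 14.3% of all tested genes. DESeq2 called 2 lower, against 2.91% of its genes called in either direction. The smallest p-values belonged to *Sik1*, a kinase that cAMP signalling controls, at -0.66 (SE 0.107, edgeR adjusted p = 0.0663), *Pde4a*, which degrades cAMP, at -1.17 (SE 0.191, adjusted p = 0.0663) and *Adcy7*, which makes it, at -0.40 (SE 0.114, adjusted p = 0.193), all as log2 fold changes. The list median was -0.13.

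*Spp1* (ENSMUSG00000029304.14, chromosome 5, 104435118 to 104441050) encodes osteopontin. Its CPM was 409 and 405 in the unloaded and 273 and 301 in the loaded libraries. Both loaded libraries lay far below both unloaded libraries, with a gap wider than the distance between replicates. The mean was 407 ± 2.24 CPM in unloaded and 287 ± 20.3 CPM in loaded samples (SD, n = 2 per group), which is 29.5% lower in the fit. The log2 fold change was -0.50 (SE 0.0693), with an edgeR adjusted p = 0.0405 that passed 0.05 but not the threshold of 0.01. DESeq2 gave an adjusted p = 9.43e-07. The call at 0.05 was lost in edgeR without any single library, with estimates of -0.58 to -0.43 and adjusted p-values of 0.0674 to 0.104, and without a filter on low counts (adjusted p = 0.0826). *Spp1* shares 309 exonic bases with *Gm42793* on the same strand, which had 45 to 101 counts against 8796 to 12287 for *Spp1*.

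The genes of the surrounding lists whose values over the 4 libraries were most like those of *Spp1* were *Tnfrsf1b*, *Adcy7* and *Jak2*. Their root mean square differences from it were 0.056, 0.067 and 0.069 in log2 CPM centred on each gene's mean, over 4 libraries and among 147 genes. Of the other osteopontin relatives, *Ibsp*, *Mepe* and *Dspp* had 0 counts in every library. Some genes of osteopontin receptors were abundant, with *Itgb1* at 175 to 207 RPKM and *Cd44* at 96.5 to 110.5 RPKM. *Itgb3*, the integrin subunit of osteoclasts, lay at 0.078 to 0.313 RPKM. Of the 16 genes in this list, relatives and receptors together, 6 were at or under the limit in every library. Of the 10 that were tested, 0 passed 0.01 with edgeR. Unadjusted, 2 had a p under 0.05, against 14.3% of all tested genes. DESeq2 called 1, against 2.91% of its genes with an adjusted p. *Tgm2*, a transglutaminase that cross-links osteopontin, passed 0.05 at a log2 fold change of -0.86 (SE 0.0978, edgeR adjusted p = 0.0287). *Itgb5* was at -0.25 (SE 0.0674, adjusted p = 0.187). *Itgav* was at 0.71 (SE 0.395, adjusted p = 0.482), with 44.2 RPKM in loaded replicate 2 against 17.0 to 19.2 RPKM in the other libraries.

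Of the 6 members tested, 0 passed the edgeR adjusted p of 0.01, against 0.0983% of all 16269 tested genes. At 0.05, 1 member was lower (*Spp1*) and 0 were higher, against 0.565% lower, 0.338% higher and 0.904% in all among the tested genes. DESeq2 called the same 1 member at 0.01, against 2.91% of its 12484 genes with an adjusted p. *Il6* had no adjusted p in DESeq2. Unadjusted, *Spp1*, *Csf1* and *Il6* had an edgeR p under 0.05, 3 of 6 against 14.3% of all tested genes. The groups did not overlap for 5 of 6, against 46.6% of the tested genes. Of the 6, 5 had a negative log2 fold change and 1 a positive one, with a median of -0.26, against -0.01 over all tested genes.

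**Figure D3:**
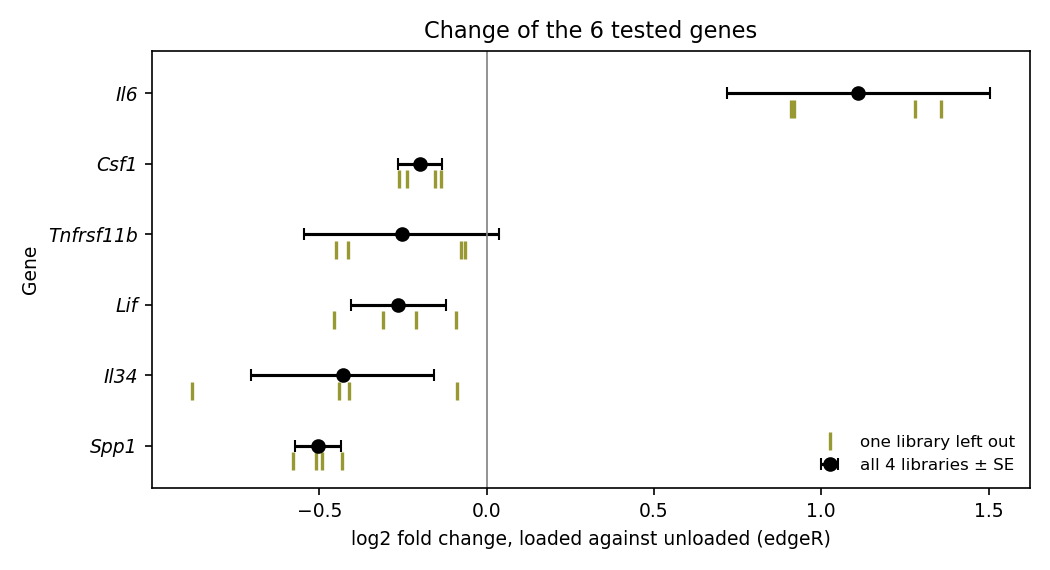
Log2 fold change of the 6 tested members, loaded against unloaded. Points are the edgeR estimate from 4 libraries with its standard error, and the short marks below them are the estimates with 1 library left out in turn. *Il6* lies at 1.11 and *Spp1* at -0.50, and the marks spread widest for *Il34*, from -0.88 to -0.09.

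The 9 lists of surrounding genes held 179 genes, of which 147 were tested. Of these 147, 1 (*Cxcl10*) passed the edgeR adjusted p of 0.01, against 0.0983% of all tested genes. At 0.05, 7 passed (4.76%), against 0.904% of all tested genes. Unadjusted, 31 (21.1%) had a p under 0.05, 7 higher and 24 lower, against 14.3%. The lists were chosen with earlier results of these data known. *Cxcl10*, an interferon-induced chemokine, was at 51.6 ± 1.04 CPM in unloaded and 17.9 ± 0.798 CPM in loaded samples (SD, n = 2 per group). It fell by 1.53 on the log2 scale (SE 0.0993, edgeR adjusted p = 0.00813). The number of list genes called at 0.01 was 0 without a filter on low counts and 0 without loaded replicate 1 or loaded replicate 2. Of the 147, 95 (64.6%) had a negative log2 fold change, against 51.5% of all tested genes, and the median was -0.12.

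Among 51 other secreted factors that act on osteoclasts, 37 were tested. In this list 1 gene was called lower and 0 higher at 0.01, and 3 were lower and 0 higher at 0.05. The median was -0.24. Beside *Cxcl10* these were *Ccl5*, a chemokine that interferons also induce, at -0.83 (SE 0.114, edgeR adjusted p = 0.0405), and *Csf2*, the gene of GM-CSF, at -1.41 (SE 0.198, adjusted p = 0.0442). *Csf2* had 432 and 346 counts in the unloaded and 163 and 145 counts in the loaded libraries, so the groups lay well apart. *Sost*, with 0 to 4 counts, was not tested. *Ifnb1*, the gene of interferon beta, had 8 and 31 counts without and 4 and 0 counts with loading and did not pass the filter of edgeR, so that its groups did not overlap but rest on few read pairs.

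All 22 genes of RANK signalling were tested, and 0 passed 0.01 with edgeR. Unadjusted, 6 had a p under 0.05, 1 higher and 5 lower, against 14.3% of all tested genes. DESeq2 called 1, against 2.91% of its genes with an adjusted p. *Map3k7*, which encodes the kinase TAK1, was higher in loaded cells at 0.05. It had 3028 and 2420 counts in the unloaded and 6106 and 5452 counts in the loaded libraries, a log2 fold change of 1.02 (SE 0.129, edgeR adjusted p = 0.0369). *Nfkb2* was at -0.25 (SE 0.0631, adjusted p = 0.16) and *Map3k14*, the kinase NIK, at -0.38 (SE 0.101, adjusted p = 0.178). The list median was -0.14.

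Of 24 regulators of RANKL transcription and hormone receptors, 21 were tested and 0 passed 0.01 or 0.05 with edgeR. Unadjusted, 3 had a p under 0.05, against 14.3% of all tested genes, and DESeq2 called 1, against 2.91% of its genes with an adjusted p. The smallest p-values were those of *Tnfrsf1b*, a TNF receptor, at -0.40 (SE 0.0865, edgeR adjusted p = 0.13), *Hif1a* at 0.33 (SE 0.0758, adjusted p = 0.139) and *Ppard* at 0.64 (SE 0.206, adjusted p = 0.245). *Vdr*, the receptor of vitamin D and a known inducer of RANKL, had 475 to 624 counts per library. Of 12 sheddases of membrane ligands, 10 were tested and 0 passed either threshold with edgeR. Beside the same 2 shares, 3 had an unadjusted p under 0.05 and 1 was called by DESeq2. The collagenase gene *Mmp13* was at -0.70 (SE 0.108, adjusted p = 0.0575), *Mmp3* at -0.76 (SE 0.18, adjusted p = 0.143) and *Mmp14*, which can shed RANKL, at 0.21 (SE 0.0857, adjusted p = 0.346). Of the 4 CSF1 receptor genes and partners 3 were tested, and 0 passed either threshold, or an unadjusted p of 0.05, with edgeR, and 0 with DESeq2.

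**Figure D4:**
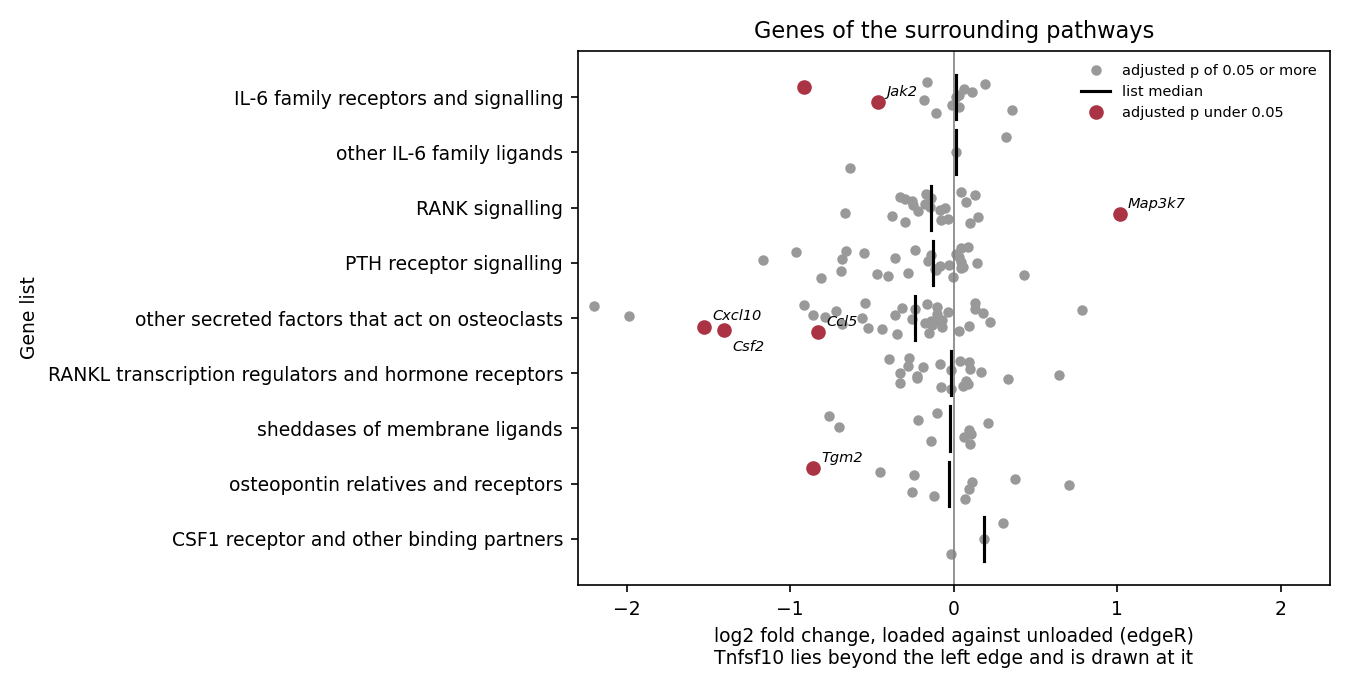
Log2 fold change of every tested gene in the 9 surrounding lists, loaded against unloaded, with 1 point per gene. Red points have an edgeR adjusted p under 0.05 and black bars are list medians. Of the 7 red points, 6 lie left of 0, among them *Cxcl10*, *Csf2*, *Ccl5*, *Tgm2* and *Jak2*, and 1 lies right of 0, *Map3k7*.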

How the data were processed

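RNA-seq of ribosomal RNA-depleted total RNA was analysed for 2 unloaded and 2 loaded MLO-Y4 samples, grouped by their titles. The authors trimmed the reads, mapped them to mm10 with HISAT2 2.1.0, assembled transcripts with StringTie 1.3.5 and made gene counts, to which read coverage was converted, with the prepDE script. The deposited values are these raw counts, without normalization. Strandedness and annotation release are not given in the sources used here. All 55450 gene identifiers were found in GENCODE M21 (GRCm38), which gave coordinates and exonic lengths.

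Genes were filtered with filterByExpr (count minimum 10), scaled by TMM and compared in R 4.3.3 by the quasi-likelihood F test that edgeR 4.0.16 offers. Benjamini-Hochberg adjustment ran over all 16269 tested genes, with a threshold of 0.01, which the authors used with DESeq2. The standard error is the log2 fold change divided by the square root of F. The RANKL to OPG balance was tested with an exact permutation test in SciPy 1.17.1. Log2 CPM used a prior count of 2. Alternatives were DESeq2 1.42.0, limma-voom 3.58.1, RLE and upper-quartile factors, 2 other filters, the replicate number as a block, a threshold of 0.05 and leaving out each library. Dividing the counts by 4 was an alternative chosen after seeing the data. The procedure was tested on simulated data, in which all genes had the same dispersion. Only genes with higher counts than *Il6* and *Tnfrsf11b* were changed there, and by more than *Spp1*. The simulation therefore does not show how well changes like those of these members are found.

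The members, the 9 pathway lists and the 7 marker lists were chosen with earlier results of these data known. Named list genes are those with an adjusted p under 0.01, filled up to 3 per list by smallest p. Some genes that this rule names are not reported here. *Lgr4*, *Il6st*, *Il11ra1*, *Lifr*, *Itgb1*, *Cd44*, *Vdr*, *Sost*, *Ifnb1*, *Ibsp*, *Mepe*, *Dspp*, *Itgb3* and *Tnfsf10* and the marker genes were named outside this rule, with their values seen.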

Additional observations from a re-analysis of the deposited data

How the results depend on the processing

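Over all genes, 16 were called, and the count became 363 with DESeq2, 147 at an adjusted p under 0.05, 29 with at least 10 counts in every library, 0 without a filter, 0 with the replicate block and 0 to 58 with 1 library left out. The highest counts came without an unloaded library, and 0 came without either loaded library. No member was called, against 1 (*Spp1*) with DESeq2 and 1 at 0.05. Of the list genes 1 was called, against 11 with DESeq2, 7 at 0.05, 0 without a filter, 0 with the replicate block and 0 to 2 with 1 library left out. All 72 alternative fold changes of the 6 tested members kept their sign. *Spp1* had an adjusted p under 0.05 in 6 of 12 settings.

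With the replicate block the adjusted p was 0.111 for *Spp1*, 0.142 for *Jak2*, 0.100 for *Ccl5*, 0.0822 for *Csf2* and 0.0716 for *Tgm2*, which lost their calls at 0.05, and 0.0168 for *Cxcl10* and 0.0332 for *Map3k7*, which did not. Same-numbered samples showed a correlation of -0.057 across genes in their deviations, and with 2 pairs they share only a number. The RANKL to OPG difference was 0.19 with the block, which is the main value by construction and no check of it. With 1 library left out, the difference was -0.020 to 0.40. It reversed to -0.020 without unloaded replicate 2. It had no value without an added count, since *Tnfsf11* was at 0. With a sample left out, the lone sample of its group is assumed to vary like the other group. Depth limits *Il6*, *Tnfrsf11b* and the 4 untested members.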

Other observations

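Some genes that also mark osteoclasts were present in these cells and were chosen after their values were seen. *Mmp9*, a gelatinase gene, had 831 and 843 counts in the unloaded and 381 and 328 counts in the loaded libraries. Its log2 fold change was -1.31 (SE 0.117, edgeR adjusted p = 0.0137, DESeq2 adjusted p = 1.18e-08). *Ctsk*, the gene of cathepsin K, had 149 and 147 counts without and 256 and 219 counts with loading, a log2 fold change of 0.61 (SE 0.189, edgeR adjusted p = 0.228). *Dcstamp*, *Ocstamp* and *Oscar* had 0 counts in every library, and *Acp5*, the gene of the osteoclast enzyme TRAP, had 5 counts in 1 library. In all, 6 of 10 osteoclast markers were at or under the limit of 12 counts in every library. The list summed to 62.0 to 63.6 CPM in unloaded and 47.6 to 48.5 CPM in loaded samples. Single genes did not share this direction. Of the 4 tested, 2 had a positive and 2 a negative log2 fold change, with a median of 0.16.

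Markers at or under the limit in every library numbered 5 of 11 for osteocytes, 3 of 8 for osteoblasts, 3 of 5 for chondrocytes, 4 of 5 for adipocytes and 2 of 5 for endothelial cells. Summed over each list, the level was 1349 to 1525 CPM for osteocytes and 2285 to 2548 CPM for osteoblasts. It was 17.8 to 21.1 CPM for chondrocytes, 0.132 to 0.620 CPM for adipocytes and 1.38 to 3.10 CPM for endothelial cells. *Tnfsf10*, the gene of the ligand TRAIL, which OPG also binds, had 14 and 12 counts in the unloaded and 0 and 0 counts in the loaded libraries (edgeR adjusted p = 0.145). The endothelial receptor gene *Kdr* had 0 and 0 counts without and 17 and 14 counts with loading (edgeR adjusted p = 0.135). These counts lie close to the limit of 12 counts. Of the 5 endothelial markers 3 were tested, 1 with a positive and 2 with a negative log2 fold change, with a median of -0.59.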
